A study of Mus musculus with 9 samples.

Results

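Imprinted genes are expressed mainly from the copy inherited from a single parent, and 33 of them were examined together with 3 genes whose proteins guard their methylation marks, Zfp57, Zfp445 and Trim28. These 36 members, taken by gene symbol from a chosen list, were all found among 22322 genes listed in RNA-seq tables of mouse R1 embryonic stem cells, and 34 had enough counts to test. There were 3 groups of 3 libraries, each from R1 cells grown in suspension without LIF for 6 days as embryoid bodies, the aggregates in which stem cells begin to differentiate. The sh-Pfkp cells carried a hairpin against Pfkp, an isoform of the glycolytic enzyme phosphofructokinase, and their genotype is labelled Pfkp knockdown. The sh-Lin41 cells carried a hairpin against Lin41, the RNA-binding protein encoded by Trim71, and are labelled Lin41 knockdown. The sh-ctrl cells carried a control hairpin and are labelled WT. A single hairpin name is given per gene, without its promoter or a rescue, so an effect of the hairpin and an effect of the knockdown cannot be told apart.

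Methylation laid down in the egg or sperm marks imprinting control regions, and these marks must be kept while the rest of the genome is demethylated and remethylated in the early embryo. ZFP57 and ZFP445 are KRAB zinc finger proteins that bind the methylated copy of such regions, ZFP57 at the hexamer TGCCGC with a methylated CpG, and recruit the corepressor TRIM28 with histone and DNA methyltransferases. Many imprinted genes act on fetal and placental growth, and imprints are known to be lost at some loci when embryonic stem cells are cultured. The tables hold total counts per gene, so which parental copy was transcribed was not measured here, nor was methylation.

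Total counts lay between 15495194 and 20607683 per library. The knockdowns were checked first. Pfkp averaged 102.9 ± 1.89 CPM in sh-Pfkp against 247.1 ± 1.83 CPM in sh-ctrl, and Trim71 averaged 159.6 ± 4.89 CPM in sh-Lin41 against 268.8 ± 4.72 CPM in sh-ctrl (SD, n = 3 each; CPM are counts scaled to library sizes adjusted with TMM). All 12 pluripotent stem cell markers examined were at or above 1 CPM in each group, whereas 10 of 12 trophoblast markers were under 1 CPM in each group. The biological coefficient of variation was 0.0213, so log2 fold changes of members as small as 0.08 passed the test, and nothing in the labels says that the libraries of a group are separate cultures. The p-values therefore measure library-to-library spread alone, and that spread may be technical. Lineage markers differed by list: 9 to 10 of 12 mesoderm and muscle markers were under 1 CPM in each group, as were 6 to 7 of 12 extraembryonic endoderm markers and 3 of 12 neural markers.

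RefSeq promoter windows, which run from 250 bases before to 50 bases after a gene's start on GRCm38.p6, were at hand for 31 members. The Peg3 and Usp29 windows are shown because these neighbours share a promoter on opposite strands. Their starts lie 164 bases apart and the windows have 263 bases in common, printed on the strand of Peg3 (chr7:6730370-6730632, minus strand) with the first transcribed base of Usp29 and then of Peg3 in capitals.
Peg3 and Usp29: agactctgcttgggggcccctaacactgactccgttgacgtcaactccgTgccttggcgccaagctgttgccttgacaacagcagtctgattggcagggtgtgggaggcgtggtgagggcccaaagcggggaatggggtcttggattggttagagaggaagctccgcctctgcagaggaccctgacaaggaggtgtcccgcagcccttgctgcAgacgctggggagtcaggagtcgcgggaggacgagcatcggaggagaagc
The Mest and Zdbf2 windows are shown because, of all member windows, they hold the most copies of the ZFP57 hexamer, whose matches (TGCCGC, or GCGGCA on the other strand) are in capitals. The Mest window lies at chr6:30737800-30738099 (plus strand) and the Zdbf2 window, the upstream of 2 listed starts, at chr1:63200108-63200407 (plus strand). The window of the downstream Zdbf2 start held no hexamer.
Mest: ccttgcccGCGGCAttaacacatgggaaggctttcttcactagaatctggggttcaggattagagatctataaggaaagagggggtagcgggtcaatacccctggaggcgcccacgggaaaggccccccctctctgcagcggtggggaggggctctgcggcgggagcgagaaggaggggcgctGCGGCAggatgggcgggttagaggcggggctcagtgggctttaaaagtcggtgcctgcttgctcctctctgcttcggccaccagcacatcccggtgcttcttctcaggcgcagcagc
Zdbf2: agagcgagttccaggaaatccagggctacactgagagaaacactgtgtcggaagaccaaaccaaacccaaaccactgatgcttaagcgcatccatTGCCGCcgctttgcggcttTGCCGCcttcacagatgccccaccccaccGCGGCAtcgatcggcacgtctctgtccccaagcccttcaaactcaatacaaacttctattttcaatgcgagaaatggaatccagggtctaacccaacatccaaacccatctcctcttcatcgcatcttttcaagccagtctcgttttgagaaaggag
The hexamer was found in 12 of 50 member windows (24.0%) and in 11.6% of all 32851 windows of that length. The 12 include overlapping Mest windows that hold the same matches, and a window of the guardian gene Trim28. Besides Mest and Zdbf2, single copies were found for Commd1, Copg2, Grb10, Igf2, Nnat, Plagl1, Snrpn, Trim28 and Zim1. Member windows were also richer in CpG, with a median of 15 CpG against 7 in all windows, and the hexamer itself contains a CpG. The shared Peg3 and Usp29 stretch held 13 CpG and no hexamer.

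Levels of the members spanned several orders of magnitude, compared here as deposited FPKM (fragments per kilobase of transcript, scaled to sequencing depth). In sh-ctrl, Trim28 was highest at 388.5 ± 4.66 FPKM, followed by Zfp57 at 176 ± 4.79 FPKM and Mest, an alpha/beta hydrolase fold protein, at 118.7 ± 1.82 FPKM (SD, n = 3). No 2 of these 3 overlapped between libraries. Snrpn (84.8 ± 1.85), Peg10 (82.2 ± 1.02) and Impact (75.8 ± 3.78 FPKM) came next. In all, 17 members reached 10 FPKM in sh-ctrl and 7 were under 1 FPKM, with a median of 8.11 FPKM against 8.44 FPKM over all genes tested. The fetal growth factor gene Igf2, high in mesoderm and placenta, had 0.473 ± 0.129 FPKM, and its level overlapped those of Zim1 above it and Usp29 below it.

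**Figure D1:**
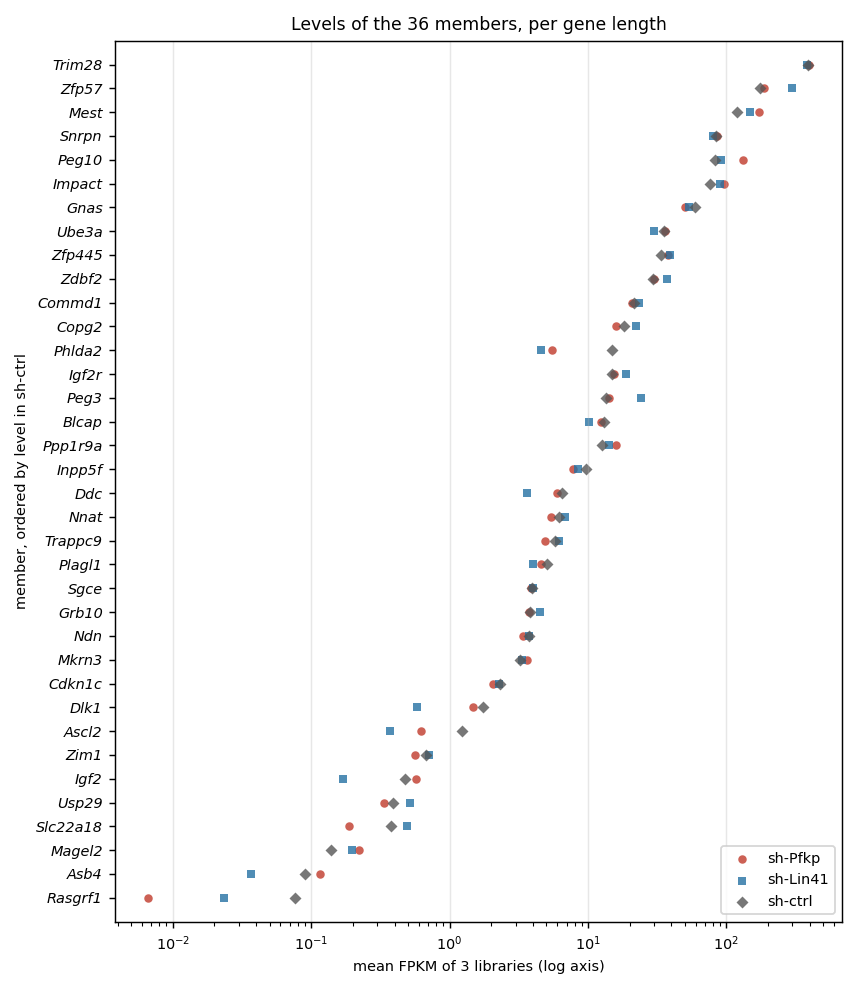
Mean FPKM of each of the 36 members in sh-Pfkp, sh-Lin41 and sh-ctrl (3 libraries each) on a log axis, ordered by the level in sh-ctrl. The order runs from Trim28 at 388.5 FPKM down to Rasgrf1 at 0.0767 FPKM in sh-ctrl, and the groups lie close together for most members.

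As a set the members moved about as often as other genes in the fit of counts. In sh-Pfkp against sh-ctrl, 11 of 34 tested members rose and 8 fell (edgeR quasi-likelihood test, adjusted p under 0.05), a share of 55.9%, while 56.6% of all 13158 genes tested were called (28.3% higher and 28.3% lower). In sh-Lin41 against sh-ctrl, 11 rose and 10 fell (61.8%), while 54.3% of all genes were called (26.9% higher and 27.3% lower). Their median log2 fold change was -0.01 in sh-Pfkp and 0.08 in sh-Lin41, and the median over all genes lay at -0.005 in sh-Pfkp and 0.0043 in sh-Lin41. Both comparisons use the same control libraries. An absolute log2 fold change of at least 0.5 was reached by 4 called members in sh-Pfkp and 7 in sh-Lin41, while 18.2% of all genes passed that rule in sh-Pfkp and 14.5% in sh-Lin41 (15.1% between the knockdowns, where 8 members did). A 2-fold change was reached by 1 called member in sh-Pfkp (6.51% of all genes), 4 in sh-Lin41 (4.26%) and 3 between the knockdowns (4.49%). Small changes in sh-Pfkp depended on the scale: with limma-trend on log2(FPKM + 1), the calls of Trim28, Peg3, Zim1, Ube3a, Igf2r, Zdbf2 and Commd1 were lost (adjusted p between 0.0926 and 0.662), and the split of all calls moved from 3721 higher and 3730 lower to 2507 higher and 3802 lower.

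**Figure D2:**
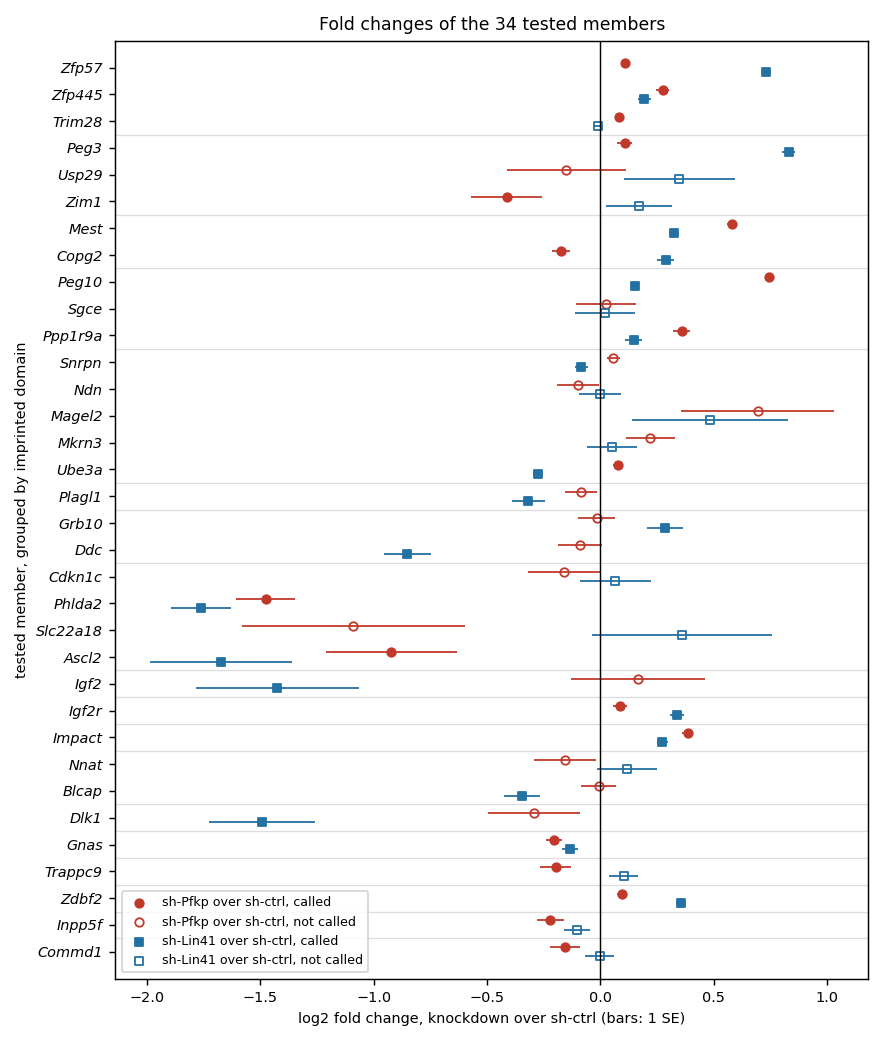
Log2 fold changes of the 34 tested members over sh-ctrl, with bars of 1 SE, for sh-Pfkp (circles) and sh-Lin41 (squares), grouped by imprinted domain; filled symbols were called at an adjusted p under 0.05. Zfp57 and Peg3 stand at 0.73 and 0.83 in sh-Lin41, Peg10 and Mest at 0.74 and 0.58 in sh-Pfkp, and Phlda2 is below -1.4 in both.

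Of the guardian genes, Zfp57 and Zfp445 rose in both knockdowns, Zfp57 by more in the Lin41 knockdown. Zfp57 (ENSMUSG00000036036) had 364.4, 372.4 and 371.1 CPM in the sh-Pfkp libraries and 565.4, 566.5 and 570.0 CPM in the sh-Lin41 libraries, against 340.3, 346.5 and 339.5 CPM in the sh-ctrl libraries. The 3 groups did not overlap, and sh-Lin41 stood far above the other two. The log2 fold change of Zfp57 in sh-Lin41 was 0.73 (SE 0.0193, edgeR adjusted p = 2.2e-24), and in sh-Pfkp it was 0.11 (SE 0.0199, adjusted p = 1.95e-05). Set against sh-Lin41, sh-Pfkp gave -0.62 (SE 0.019, adjusted p = 9.99e-23). Zfp445 had 162.8, 166.7 and 158.9 CPM in the sh-Pfkp libraries and 154.3, 150.7 and 157 CPM in the sh-Lin41 libraries, against 131.6, 134.2 and 138.1 CPM in the sh-ctrl libraries, so every knockdown library was above every control library. The change was 0.27 (SE 0.029, edgeR adjusted p = 1.41e-09) in sh-Pfkp and 0.19 (SE 0.029, adjusted p = 1.2e-06) in sh-Lin41. Trim28 had 1331, 1317 and 1315 CPM in the sh-Pfkp libraries and 1231, 1243 and 1237 CPM in the sh-Lin41 libraries, against 1258, 1232 and 1251 CPM in the sh-ctrl libraries. It rose by 0.08 (SE 0.015, edgeR adjusted p = 1.93e-05) in sh-Pfkp, on the count scale only, and was not called in sh-Lin41 (-0.01, adjusted p = 0.551), whose libraries overlapped the controls. The summed level of the 12 pluripotent stem cell markers was higher with Zfp57 in sh-Lin41 and lower in sh-Pfkp, where Zfp57 rose, at 5007 to 5055 CPM in sh-Pfkp and 6146 to 6178 CPM in sh-Lin41 against 5235 to 5283 CPM in sh-ctrl, with none at 0. Of these 12 markers 5 rose and 7 fell in sh-Pfkp, while 7 rose and 2 fell in sh-Lin41, and their part in the change of Zfp57 was not tested. In a bulk library, fewer cells of a type and less RNA per cell cannot be told apart.

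**Figure D3:**
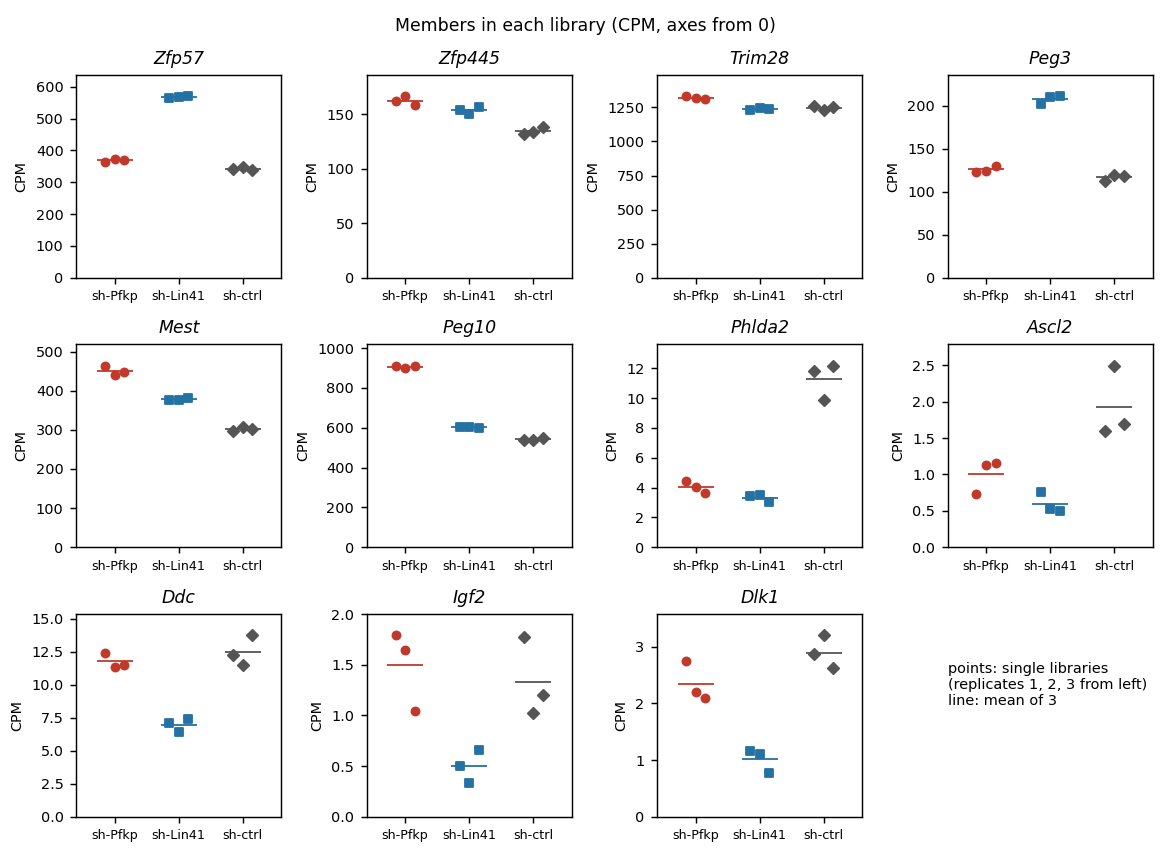
CPM in each library of the guardians and of every called member with an absolute log2 fold change of at least 0.5 over sh-ctrl and a mean of at least 1 CPM, with lines at group means and axes from 0. All sh-Lin41 libraries lie above the others for Zfp57 and Peg3, all sh-Pfkp libraries above the others for Mest and Peg10, and all knockdown libraries below the controls for Phlda2 and Ascl2.

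Peg3, a paternally expressed zinc finger gene, was the member with the largest called rise in the Lin41 knockdown. It had 123.6, 124 and 130.3 CPM in the sh-Pfkp libraries and 202.5, 209.9 and 211.1 CPM in the sh-Lin41 libraries, against 112.6, 119.9 and 118.3 CPM in the sh-ctrl libraries. Again sh-Lin41 stood apart, and sh-Pfkp was just above the controls without overlap. Its change in sh-Lin41 was 0.83 (SE 0.0297, edgeR adjusted p = 4.26e-21), against 0.11 (SE 0.0318, adjusted p = 0.00481) in sh-Pfkp, and sh-Pfkp over sh-Lin41 was -0.72 (SE 0.0291, adjusted p = 9.15e-20). Usp29, a deubiquitinase gene that starts in the shared stretch printed above, had 21, 32 and 29 counts in the sh-Pfkp libraries and 43, 52 and 28 counts in the sh-Lin41 libraries, against 29, 29 and 26 counts in the sh-ctrl libraries. It was not called in sh-Lin41 (0.35, SE 0.243, edgeR adjusted p = 0.23) or in sh-Pfkp (-0.15, SE 0.261, adjusted p = 0.648). Zim1, a maternally expressed zinc finger gene next to Peg3, fell in sh-Pfkp (-0.41, SE 0.157, edgeR adjusted p = 0.0251) and was not called in sh-Lin41 (0.17, adjusted p = 0.34). The Zim1 call rested on 177 counts in sh-Pfkp against 218 in sh-ctrl and was lost without sh-Pfkp replicate 1 (adjusted p = 0.118), sh-Pfkp replicate 3 (0.0529) or sh-ctrl replicate 3 (0.111), and with DESeq2 (0.078).

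Mest rose in both knockdowns while its neighbour Copg2 did not follow it in sh-Pfkp. Mest had 463.5, 439.9 and 448 CPM in the sh-Pfkp libraries and 376.4, 375.6 and 381.3 CPM in the sh-Lin41 libraries, against 296.8, 306.4 and 301.4 CPM in the sh-ctrl libraries, in 3 ranges that did not overlap. The rise was 0.58 (SE 0.0218, edgeR adjusted p = 1.55e-20) in sh-Pfkp and 0.33 (SE 0.022, adjusted p = 4.74e-14) in sh-Lin41. Copg2, a coatomer subunit gene expressed from the maternal copy, averaged 61.2 ± 2.09 CPM in the sh-Pfkp libraries and 84.2 ± 1.03 CPM in the sh-Lin41 libraries, against 69.0 ± 1.51 CPM in the sh-ctrl libraries (SD, n = 3). It fell in sh-Pfkp (-0.17, SE 0.039, edgeR adjusted p = 0.000335) and rose in sh-Lin41 (0.29, SE 0.0369, adjusted p = 7.01e-08), and the knockdowns differed directly (-0.46, SE 0.0371, adjusted p = 3.03e-12). Mest and Copg2 converge, and whether the counting used strand is unknown here, so reads from their overlap cannot be told apart. The same limit holds for Nnat inside Blcap and for Commd1, which hosts Zrsr1.

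In the Peg10 domain, Peg10 and Ppp1r9a rose in both knockdowns, Peg10 by more in the Pfkp knockdown. Peg10, a retrotransposon-derived gene required for the placenta, had 911, 899.4 and 907.7 CPM in the sh-Pfkp libraries and 605.2, 604.1 and 598.7 CPM in the sh-Lin41 libraries, against 540.7, 536.7 and 547.9 CPM in the sh-ctrl libraries. All 3 groups were apart, with sh-Pfkp the highest. Peg10 changed by 0.74 (SE 0.0172, edgeR adjusted p = 3.53e-26) in sh-Pfkp and by 0.15 (SE 0.0174, adjusted p = 5.83e-09) in sh-Lin41, and sh-Pfkp over sh-Lin41 was 0.59 (SE 0.0169, adjusted p = 2.39e-23). Ppp1r9a, which encodes the actin and phosphatase binding protein neurabin, rose by 0.36 (SE 0.036, edgeR adjusted p = 5.15e-10) in sh-Pfkp and 0.15 (SE 0.0365, adjusted p = 0.00102) in sh-Lin41. Sgce, the epsilon-sarcoglycan gene that is known to share its promoter with Peg10, was not called in either. It averaged 6.50 ± 0.841 CPM in the sh-Pfkp libraries and 6.47 ± 0.523 CPM in the sh-Lin41 libraries, against 6.38 ± 0.892 CPM in the sh-ctrl libraries (SD, n = 3), and its change in sh-Pfkp was 0.03 (SE 0.133, edgeR adjusted p = 0.883). Casd1, on the other side of Sgce, and Pon2, a paraoxonase gene further along, were listed with other imprinted genes and also rose in sh-Pfkp (0.73, SE 0.058, edgeR adjusted p = 2.65e-12, and 1.22, SE 0.137, adjusted p = 4.93e-09). Their changes in sh-Lin41 were 0.15 (SE 0.0612, edgeR adjusted p = 0.0337) and 0.51 (SE 0.146, adjusted p = 0.0039). Pon3, between Ppp1r9a and Pon2, was not called in sh-Pfkp (0.27, SE 0.325, edgeR adjusted p = 0.489) or in sh-Lin41 (0.36, SE 0.318, adjusted p = 0.352). Asb4, at the end of the domain, gave 22 counts in the sh-Pfkp libraries together and 7 over the sh-Lin41 libraries, against 11 over the sh-ctrl libraries, and was not tested. Stromal and fibroblast markers moved with Peg10 and Mest: their sum over 12 genes was 34.5 to 39.8 CPM in sh-Pfkp and 14.1 to 15.3 CPM in sh-Lin41, against 12.6 to 13.4 CPM in sh-ctrl, and 4 of them were under 1 CPM in sh-Pfkp, 7 in sh-Lin41 and 8 in sh-ctrl. Of 9 tested, 6 rose and 1 fell in sh-Pfkp, while 3 rose and none fell in sh-Lin41. Among the 6, Dcn, Col1a2 and Col3a1 passed the count filter only through sh-Pfkp, with 52, 283 and 292 counts there against 0, 1 and 2 in sh-ctrl. The count of rises in sh-Pfkp is therefore partly set by the filter. The rise of Col1a2 in sh-Lin41 rests on 10 counts against 1. Their part in these rises was not tested.

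**Figure D4:**
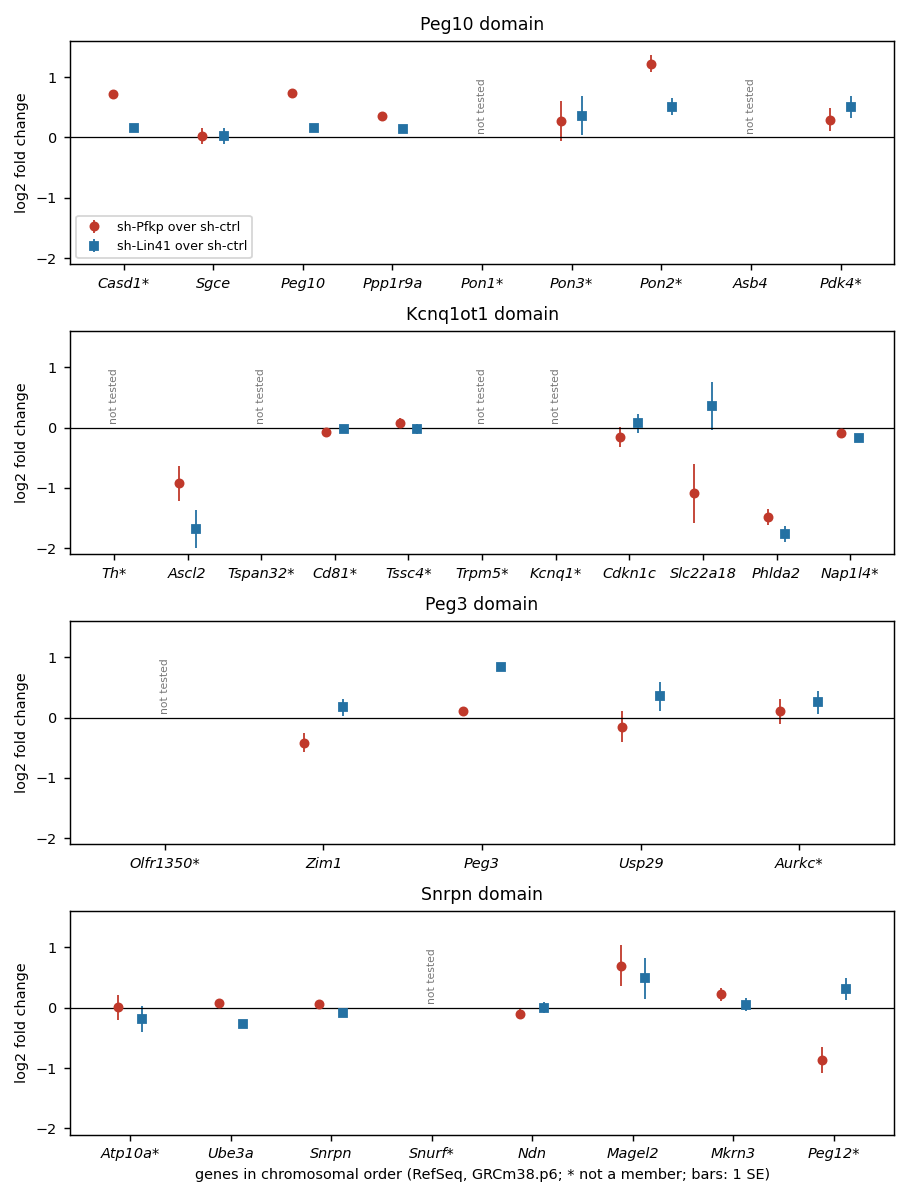
Log2 fold changes over sh-ctrl of the genes of 4 imprinted domains in chromosomal order (RefSeq, GRCm38.p6), members and neighbours marked with an asterisk, for sh-Pfkp and sh-Lin41 with bars of 1 SE. Casd1, Peg10, Ppp1r9a and Pon2 rose in sh-Pfkp, where Sgce at 0.03 and Pon3 at 0.27 were not called. In the Kcnq1ot1 domain Ascl2, Phlda2 and, by less, Nap1l4 (-0.09 in sh-Pfkp and -0.18 in sh-Lin41) fell in both knockdowns, while Cd81, Tssc4, Cdkn1c and Slc22a18 (-1.09 in sh-Pfkp with an SE of 0.492) were not called.

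The placental growth genes Phlda2 and Ascl2, expressed from the maternal copy in the domain silenced by the RNA Kcnq1ot1, fell in both knockdowns. Phlda2, a pleckstrin homology protein that restrains placental growth, had 4.47, 4.05 and 3.61 CPM in the sh-Pfkp libraries and 3.41, 3.52 and 3.03 CPM in the sh-Lin41 libraries, against 11.8, 9.85 and 12.2 CPM in the sh-ctrl libraries. The highest knockdown library had 4.47 CPM and the lowest control library 9.85 CPM. The change was -1.48 (SE 0.128, edgeR adjusted p = 1.89e-11) in sh-Pfkp and -1.76 (SE 0.131, adjusted p = 4.95e-13) in sh-Lin41, and the knockdowns were not called apart (0.28, SE 0.152, adjusted p = 0.115). Ascl2, a transcription factor gene needed for the trophoblast, had 14, 22 and 20 counts in the sh-Pfkp libraries and 15, 11 and 9 counts in the sh-Lin41 libraries, against 28, 39 and 31 counts in the sh-ctrl libraries. It fell in sh-Pfkp (-0.92, SE 0.288, edgeR adjusted p = 0.0071) and in sh-Lin41 (-1.67, SE 0.314, adjusted p = 3.64e-05). The first of these calls was lost without sh-Pfkp replicate 1 (adjusted p = 0.0525) or sh-ctrl replicate 2 (0.0741). Between these genes, Cdkn1c, the cyclin-dependent kinase inhibitor p57, averaged 3.28 ± 0.12 CPM in the sh-Pfkp libraries and 3.85 ± 0.158 CPM in the sh-Lin41 libraries, against 3.66 ± 0.41 CPM in the sh-ctrl libraries (SD, n = 3) and was not called (edgeR adjusted p = 0.413 in sh-Pfkp and 0.742 in sh-Lin41). Slc22a18, an organic cation transporter family gene, had 15 counts in sh-Pfkp and 44 in sh-Lin41 against 30 in sh-ctrl. Slc22a18 was lower in the Pfkp than in the Lin41 knockdown (-1.45, SE 0.457, edgeR adjusted p = 0.00775), while against sh-ctrl it was not called in sh-Pfkp (adjusted p = 0.0589, and 0.0269 without sh-ctrl replicate 2) or in sh-Lin41 (0.461). It passed the count filter only with the sh-Lin41 libraries in the fit, which held its highest counts (16, 14 and 14). The direct call is therefore not independent of the filter. The 12 trophoblast markers summed to 61.9 to 65.1 CPM in sh-Pfkp and 40.9 to 44.4 CPM in sh-Lin41, against 53 to 58.8 CPM in sh-ctrl, and Prl3d1 and Psg21 had no count in any library. Most of that sum was Tfap2c (51.4 CPM in sh-Pfkp and 32.7 CPM in sh-Lin41, against 39.7 CPM in sh-ctrl). Of the 3 markers with enough counts to test, Eomes and Hand1 fell and Tfap2c rose in sh-Pfkp, and all 3 fell in sh-Lin41. Eomes changed by -0.49 in sh-Pfkp (edgeR adjusted p = 2.45e-05) and -0.67 in sh-Lin41 (adjusted p = 2.09e-07), and Hand1 by -1.78 in sh-Pfkp (adjusted p = 0.00831) and -1.74 in sh-Lin41 (adjusted p = 0.00898). In each group 10 of the 12 markers were under 1 CPM, Hand1 among them, so its change rests on few counts. The part of these markers in the fall of Phlda2 and Ascl2 was not tested.

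Further growth regulators, Dlk1, Igf2 and Plagl1, fell in the Lin41 knockdown and were not called in the Pfkp knockdown. Dlk1, a transmembrane protein with EGF repeats that holds back adipocyte differentiation, had 52, 43 and 36 counts in the sh-Pfkp libraries and 23, 23 and 14 counts in the sh-Lin41 libraries, against 50, 50 and 48 counts in the sh-ctrl libraries. It fell in sh-Lin41 (-1.49, SE 0.233, edgeR adjusted p = 2.24e-06), was not called in sh-Pfkp (-0.29, SE 0.203, adjusted p = 0.223), and stood higher in the Pfkp than in the Lin41 knockdown (1.20, SE 0.239, adjusted p = 7.43e-05). Igf2 had 34, 32 and 18 counts in the sh-Pfkp libraries and 10, 7 and 12 counts in the sh-Lin41 libraries, against 31, 16 and 22 counts in the sh-ctrl libraries. All sh-Lin41 libraries were below the others, at -1.43 (SE 0.359, edgeR adjusted p = 0.00118) against sh-ctrl, and sh-Pfkp over sh-Lin41 was 1.59 (SE 0.347, adjusted p = 0.000233). With limma-trend on log2(FPKM + 1) neither Igf2 call held (adjusted p = 0.0973 in sh-Lin41 against sh-ctrl and 0.0508 between the knockdowns). Plagl1, a zinc finger gene, fell in sh-Lin41 (-0.32, SE 0.0719, edgeR adjusted p = 0.000386) and was not called in sh-Pfkp (-0.08, adjusted p = 0.317). Igf2r, whose product is the receptor that clears IGF2, averaged 140.2 ± 5.12 CPM in the sh-Pfkp libraries and 167.0 ± 4.52 CPM in the sh-Lin41 libraries, against 132.2 ± 1.81 CPM in the sh-ctrl libraries (SD, n = 3). Igf2r rose in sh-Lin41 (0.34, SE 0.0299, edgeR adjusted p = 2.74e-11) and by 0.09 in sh-Pfkp (SE 0.0307, adjusted p = 0.0169), a call lost without sh-Pfkp replicate 1 (0.0583), sh-Pfkp replicate 2 (0.0679) or sh-ctrl replicate 1 (0.0537). Grb10, an adaptor that dampens insulin and IGF1 receptor signalling, rose in sh-Lin41 (0.28, SE 0.0793, edgeR adjusted p = 0.0031, and 0.0883 with limma-trend on log2(FPKM + 1)) and not in sh-Pfkp (-0.02, adjusted p = 0.884). Its neighbour Ddc, the dopa decarboxylase gene, had 12.4, 11.4 and 11.5 CPM in the sh-Pfkp libraries and 7.08, 6.42 and 7.38 CPM in the sh-Lin41 libraries, against 12.2, 11.5 and 13.7 CPM in the sh-ctrl libraries. Only the sh-Lin41 libraries of Ddc stood apart, at -0.85 on the log2 scale (SE 0.104, edgeR adjusted p = 2.47e-08). Mesoderm and muscle markers summed to 9.95 to 11.3 CPM in sh-Pfkp and 8.31 to 8.74 CPM in sh-Lin41, against 10.1 to 10.9 CPM in sh-ctrl, and 9 of 12 were under 1 CPM in sh-Pfkp, 10 in sh-Lin41 and 10 in sh-ctrl. Of 5 tested, 1 fell in sh-Lin41 and none rose, while 2 rose and 2 fell in sh-Pfkp. Extraembryonic endoderm markers, with Afp at 0 in all libraries, summed to 215 to 222.4 CPM in sh-Pfkp and 172 to 186.2 CPM in sh-Lin41, against 249.3 to 263 CPM in sh-ctrl, and 6 of 12 were under 1 CPM in sh-Pfkp, 7 in sh-Lin41 and 7 in sh-ctrl. Most of that sum was Lama1 (166 CPM in sh-Pfkp and 131.2 CPM in sh-Lin41, against 214.7 CPM in sh-ctrl), the 1 tested marker of 7 that fell in sh-Lin41, where 2 rose and the median log2 fold change was 0.16. The 12 neural markers, none at 0 and 3 under 1 CPM in each group, summed to 524.5 to 540.6 CPM in sh-Pfkp and 408.1 to 413.8 CPM in sh-Lin41, against 426.4 to 428.6 CPM in sh-ctrl, and of 9 tested, 5 rose and 2 fell in sh-Pfkp while 2 rose and 3 fell in sh-Lin41. The part of these markers in the falls of Igf2, Dlk1 and Ddc was not tested.

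In the Snrpn domain, whose loss in humans underlies the Prader-Willi and Angelman syndromes, Ube3a and Snrpn were the members called. Ube3a, a ubiquitin ligase gene expressed from the maternal copy in neurons, averaged 284.1 ± 1.85 CPM in the sh-Pfkp libraries and 222.5 ± 2.5 CPM in the sh-Lin41 libraries, against 269.2 ± 1.24 CPM in the sh-ctrl libraries (SD, n = 3). It fell in sh-Lin41 (-0.27, SE 0.0222, edgeR adjusted p = 3.45e-12) and rose by 0.08 (SE 0.0218, adjusted p = 0.00304) in sh-Pfkp on the count scale. Snrpn, a small nuclear ribonucleoprotein gene, fell by 0.08 on the log2 scale in sh-Lin41 (SE 0.0279, edgeR adjusted p = 0.011), a call lost without sh-ctrl replicate 3 (0.0782). In sh-Pfkp it was not called (0.06, edgeR adjusted p = 0.0766), and it was called without sh-Pfkp replicate 3 (0.0247) or sh-ctrl replicate 3 (0.0362). The necdin gene Ndn, the MAGE family gene Magel2 and the RING finger gene Mkrn3 were not called against sh-ctrl (edgeR adjusted p between 0.0789 and 0.998), Mkrn3 in sh-Pfkp being called without sh-Pfkp replicate 3 (0.0354). Magel2 had 58 counts in sh-Pfkp and 53 in sh-Lin41 against 33 in sh-ctrl, with exact 95% counting intervals of the ratio to sh-ctrl from 1.04 to 2.57 for sh-Pfkp and from 0.893 to 2.24 for sh-Lin41, which cover counting error only.

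Among the other members, Impact and Zdbf2 were the ones that rose. Impact, whose product inhibits the amino acid sensor kinase GCN2, averaged 274.5 ± 5.76 CPM in the sh-Pfkp libraries and 253.8 ± 6.00 CPM in the sh-Lin41 libraries, against 210.2 ± 3.68 CPM in the sh-ctrl libraries (SD, n = 3). Impact rose by 0.39 (SE 0.0248, edgeR adjusted p = 1.33e-14) in sh-Pfkp and 0.27 (SE 0.0248, adjusted p = 5.12e-11) in sh-Lin41. Zdbf2, a zinc finger gene whose upstream promoter window is shown above, averaged 365.8 ± 0.869 CPM in the sh-Pfkp libraries and 437.5 ± 6.3 CPM in the sh-Lin41 libraries, against 342.5 ± 3.91 CPM in the sh-ctrl libraries (SD, n = 3). Its change was 0.35 (SE 0.02, edgeR adjusted p = 5.08e-16) in sh-Lin41 and 0.10 (SE 0.0204, adjusted p = 0.000186) in sh-Pfkp. Gnas, which encodes the stimulatory G protein alpha subunit, averaged 73.3 ± 1.95 CPM in the sh-Pfkp libraries and 77.0 ± 0.969 CPM in the sh-Lin41 libraries, against 84.5 ± 1.94 CPM in the sh-ctrl libraries (SD, n = 3). It fell in sh-Pfkp (-0.21, SE 0.0361, edgeR adjusted p = 1.39e-05) and in sh-Lin41 (-0.13, SE 0.0356, adjusted p = 0.00206). Blcap fell in sh-Lin41 (-0.35, SE 0.0786, edgeR adjusted p = 0.000401) and the neuronatin gene Nnat inside it was not called in either knockdown (adjusted p = 0.341 in sh-Pfkp and 0.468 in sh-Lin41). The phosphoinositide phosphatase gene Inpp5f (-0.22, SE 0.0597, edgeR adjusted p = 0.0021), the vesicle tethering gene Trappc9 (-0.20, SE 0.0672, adjusted p = 0.0128) and Commd1 (-0.15, SE 0.0656, adjusted p = 0.0442) fell in sh-Pfkp and were not called in sh-Lin41 (adjusted p between 0.139 and 0.978). Trappc9 lost its call without sh-ctrl replicate 1 (0.0743). Commd1 lost it when any single library other than sh-Pfkp replicate 3 or sh-Lin41 replicate 3 was left out (edgeR adjusted p between 0.0506 and 0.144), and with DESeq2 (0.128). Rasgrf1, a Ras exchange factor gene, had 2 counts in sh-Pfkp and 7 in sh-Lin41, against 13 in sh-ctrl, of which 11 came from replicate 3, and was not tested.

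The members were also grouped by the parental copy that is known to be active in the mouse. This can hold in some tissues only, as for Ube3a in neurons. Which copy was active in these libraries was not measured. In sh-Pfkp, of 17 tested genes of the paternal copy 5 rose and 1 fell, with a median log2 fold change of 0.06, and of 14 tested genes of the maternal copy 3 rose and 7 fell, with a median of -0.17, while 28.3% of all genes rose and 28.3% fell. In sh-Lin41, 5 rose and 5 fell of the paternal genes (median 0.05) and 4 rose and 5 fell of the maternal genes (median 0.08), while 26.9% of all genes rose and 27.3% fell. No test was made of these counts. In sh-Pfkp they were 3 and 1 for the paternal and 1 and 5 for the maternal genes with limma-trend on log2(FPKM + 1). On that scale the calls of all genes also leaned lower, with 2507 higher and 3802 lower of 13158. Of the 7 maternal falls in sh-Pfkp, those of Zim1, Ascl2, Trappc9 and Commd1 were each lost when a single library was left out, as given above for those genes, and 4 falls were left without sh-Pfkp replicate 1. Set directly against each other, 23 of 34 members differed between the knockdowns, with 13 higher and 10 lower in the Pfkp knockdown (67.6%, against 55.1% of all genes, 27.4% higher and 27.8% lower). Slc22a18, among the lower, was tested only through its sh-Lin41 counts. With a filter of 1 CPM in 3 libraries it was not tested, and 22 of 33 members were called, beside 7141 of all 12383 genes. Commd1 was among the lower (-0.15, edgeR adjusted p = 0.0444) and lost that call when any single library other than sh-Pfkp replicate 3 or sh-Lin41 replicate 2 was left out (0.0536 to 0.217). Ascl2, not called here (0.75, SE 0.348, edgeR adjusted p = 0.0673), was called higher without sh-Pfkp replicate 1 (0.0363) or sh-Lin41 replicate 1 (0.0497). Usp29 was called lower without sh-Lin41 replicate 3 (edgeR adjusted p = 0.0316), Nnat without sh-Pfkp replicate 3 (0.0197) and Inpp5f without sh-Lin41 replicate 1 (0.0234). With limma-trend on log2(FPKM + 1), the calls of Zim1, Plagl1, Grb10, Impact and Commd1 were lost (adjusted p between 0.0601 and 0.236), as was that of Igf2, and Gnas was called lower (0.0245).

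Further imprinted genes and maintenance factors were read from lists of the same kind. Beside the shares called in these lists, 56.6% of all genes tested were called in sh-Pfkp and 54.3% in sh-Lin41. Of 45 other imprinted genes 35 were listed and 24 tested, and 9 rose and 7 fell in sh-Pfkp (66.7% called, median log2 fold change 0.14, also with Dcn, which had no control count, set at its lower bound), while 6 rose and 4 fell in sh-Lin41 (41.7%, median 0.05). Dcn, among the 9, passed the count filter only through sh-Pfkp. Jade1, a PHD finger gene of histone acetyltransferase complexes, rose in sh-Pfkp (0.52, SE 0.019) and sh-Lin41 (0.22, SE 0.0192), and the amino acid transporter gene Slc38a4 fell in both (-0.31, SE 0.0261, and -0.28, SE 0.0259). Sfmbt2, a Polycomb group gene, fell in sh-Lin41 (-0.62, SE 0.0469) and rose in sh-Pfkp (0.31, SE 0.0427), while Cobl, an actin nucleator gene next to Grb10, rose in sh-Lin41 (0.18, SE 0.0279) and fell in sh-Pfkp (-0.16, SE 0.0287). Of 26 other genes of imprint maintenance and DNA methylation 25 were tested, and 17 rose and 5 fell in sh-Pfkp (88.0% called, median 0.13), while 11 rose and 13 fell in sh-Lin41 (96.0%, median -0.08). The changes were no larger than elsewhere: their median absolute log2 fold change was 0.21 in sh-Pfkp and 0.15 in sh-Lin41, against 0.21 and 0.20 over all genes. An absolute change of at least 0.5 was reached by 0 called genes of the 25 in sh-Pfkp and 5 in sh-Lin41, against 18.2% and 14.5% of all genes. The smallest adjusted p-values in sh-Pfkp belonged to rises of the chromatin remodeller gene Atrx (0.47, SE 0.0189), Zfp42 (0.41, SE 0.023), the histone methyltransferase gene Setdb1 (0.41, SE 0.0243), which acts with TRIM28, and Zfp568 (0.38, SE 0.0282), a KRAB zinc finger gene that represses a placental Igf2 transcript. In sh-Lin41, the demethylase gene Tet2 (0.75, SE 0.0194, edgeR adjusted p = 1.51e-24) and Zfp42 (0.78, SE 0.0226) rose, and the de novo methyltransferase genes Dnmt3b (-0.54, SE 0.0278) and Dnmt3a (-0.65, SE 0.0345) fell. Zfp42 and Dppa3 are also among the pluripotent stem cell markers summed above. Dppa3, whose protein protects methylation in the zygote, was chosen after its values were seen: it averaged 16.3 ± 0.934 CPM in the sh-Pfkp libraries and 5.56 ± 0.534 CPM in the sh-Lin41 libraries, against 19 ± 2.38 CPM in the sh-ctrl libraries, and fell by 1.76 on the log2 scale in sh-Lin41 (SE 0.104, edgeR adjusted p = 1.53e-15) and by 0.21 in sh-Pfkp (SE 0.0885, adjusted p = 0.0415).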

How the data were processed

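Whole-number read counts were deposited for each gene in each library, per the file headers. Among the tools in the submitters' processing notes are RSEM and HISAT2, StringTie 1.3.1, fastp 0.18.0 and Bowtie2 2.2.8, and RSEM estimates counts, which the authors may then have rounded. The authors deposited FPKM beside the counts, and a log2 ratio with a p-value and FDR per gene, which are used here only to count members: 16 members of the authors' deposited table had an FDR under 0.05 in sh-Pfkp and 20 in sh-Lin41. The share of all genes under that FDR was not counted, so these counts are not read as a result about the members. No source used here gives the authors' genome build, annotation, strand setting or test. Control columns were identical in both tables, and the shorter filtered tables were not used here.

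All 9 libraries entered 1 fit with edgeR 4.0.16 in R 4.3.3 (filterByExpr by group, TMM, quasi-likelihood test, 6 residual degrees of freedom, Benjamini-Hochberg adjustment over all 13158 genes tested, threshold 0.05). SEs were derived as log2 fold change over the root of F. CPM values use TMM-scaled library sizes. The steps were tested on simulated data. Replicate pairs had a median chi-square of 0.661 to 0.763 over genes with at least 50 counts, against 0.455 from counting noise, so none was treated as a duplicate. Alternatives were DESeq2 1.42.0, RLE scaling, other filters, limma 3.58.1 on log2(FPKM + 1), fits of 6 libraries, a 2-fold minimum, a replicate block and omission of each library.

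The members and lists were chosen with earlier results of these data known. Values in every library were given for the guardians and for members called with an absolute log2 fold change of at least 0.5 over sh-ctrl and a mean of at least 1 CPM; of the other imprinted and maintenance lists, up to 4 called genes with the smallest adjusted p were named per knockdown. RefSeq promoter windows matched 31 of 36 members by symbol.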

Additional observations from a re-analysis of the deposited data

How the results depend on the processing

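Counts of called members held within 1.5 times under RLE scaling, both other filters, DESeq2 and the fits of 6 libraries. With a 2-fold minimum 1 member was called in sh-Pfkp (6.51% of all genes) and 4 in sh-Lin41 (4.26%) against sh-ctrl, and 3 between the knockdowns (4.49%). With limma-trend on log2(FPKM + 1), 12 of 34 members were called in sh-Pfkp against sh-ctrl, 6 of them higher. Of all 13158 genes, 6309 were called there, against 7451 on counts, so members were called less often than other genes on that scale. On the same scale the median of all genes lay at -0.0394, against -0.005 on counts. On it Zfp445 turned to -0.035 in sh-Pfkp against sh-Lin41, where the count fit called it higher; that call was also lost without sh-Pfkp replicate 2 (edgeR adjusted p = 0.0589) or sh-Lin41 replicate 2 (0.0599). The cause was not tested. Leaving out each library in turn gave 5 to 8 members lower and 15 to 20 called in sh-Pfkp, 20 to 21 called in sh-Lin41 and 21 to 24 called between the knockdowns, with 5 lower members without sh-Pfkp replicate 1. Of all genes, 13325 to 13398 were tested in these fits. The calls among them were 6876 to 7550 in sh-Pfkp (3359 to 3679 lower), 6447 to 7176 in sh-Lin41 and 6716 to 7299 between the knockdowns. The replicate numbers share only a number: deviations from group means of same-numbered libraries correlated at r between -0.083 and 0.125 across genes. With the replicate block 19, 21 and 23 members were called, as without it, beside 7435, 7109 and 7196 of all 13158 genes. Low counts limit Usp29, Igf2, Ascl2, Magel2 and Slc22a18.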

Other observations

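Genes of the other imprinted list that stood out were chosen here after their values were seen. Rtl1, a retrotransposon-derived gene of the Dlk1 domain that is required for the placenta, averaged 3.67 ± 0.249 CPM in the sh-Pfkp libraries and 3.65 ± 0.138 CPM in the sh-Lin41 libraries, against 1.55 ± 0.255 CPM in the sh-ctrl libraries (SD, n = 3), and rose in both (log2 fold change 1.25, SE 0.195, edgeR adjusted p = 2.05e-06, and 1.25, SE 0.193, adjusted p = 2e-06). Whether the counting used strand is unknown here, so any antisense reads over Rtl1 cannot be told apart. Dlk1 itself, in the same domain, was lower in sh-Lin41. Peg12, beyond Mkrn3 in the Snrpn domain, averaged 1.42 ± 0.242 CPM in sh-Pfkp against 2.57 ± 0.254 CPM in sh-ctrl and fell by 0.86 on the log2 scale (SE 0.216, edgeR adjusted p = 0.00108), while it was not called in sh-Lin41 (0.31, adjusted p = 0.164). Dcn, a proteoglycan gene that is imprinted in the placenta and is also on the stromal list, had 52 counts in sh-Pfkp and none in sh-Lin41 or sh-ctrl, at least 16-fold higher in sh-Pfkp against a floor of 3 counts over the control group.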
